A study of Mus musculus with 12 samples.

Results

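The aminoacyl-tRNA synthetases are the enzymes that load each amino acid onto its transfer RNA. Their RNA was followed in mouse spinal cord, in whole tissue and on ribosomes pulled down from labelled neurons. The members were the protein-coding genes whose symbol is a single letter code followed by "ars", with or without an ending such as 2, a or b, together with Eprs. Lars2, the mitochondrial leucyl enzyme, was left out because it takes reads of ribosomal RNA. This gave 37 genes of 40912 gene IDs: 19 of enzymes that work in the cytosol, 16 of enzymes that work in mitochondria, and 2, Gars and Kars, that each supply both compartments. All 37 had enough reads to enter the test, which covered 15905 genes.

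The libraries came from spinal cord at postnatal day 21 of 2 bacTRAP mouse strains, Tg(Chat-EGFP/Rpl10a)DW167Htz and Tg(Snap25-EGFP/Rpl10a)JD362Jdd, which carry the ribosomal protein Rpl10a tagged with EGFP under sequences of Chat or Snap25. Chat marks cholinergic cells, in spinal cord chiefly motor neurons, and Snap25 marks neurons in general. Each strain gave 3 libraries of RNA from before immunopurification (PreIP, the input) and 3 from the immunopurified ribosomes (TRAP, the pulldown), 12 in all. No group is untagged, so RNA that sticks to the beads is not measured apart, and the Snap25 pulldown can itself hold motor neuron RNA.

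Synthetases work in 2 largely separate sets, since mitochondria translate their own messages with their own transfer RNAs. In the cytosol several of them sit in one multisynthetase complex, and the phenylalanyl enzyme is built of an alpha subunit (Farsa) and a beta subunit (Farsb). Changes in several of the cytosolic genes and in Gars and Kars cause inherited axonal neuropathy, and changes in several of the others cause disease of the white matter, which is why the family is of interest in motor neurons. In stressed cells the transcription factor Atf4 is known to raise many of the cytosolic genes through the amino acid response element.

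How Gars and Kars supply both compartments can be read from the start of their coding sequence, and both rose in both pulldowns. The coding start of Gars is shown from its first ATG to the next ATG in frame, both in capitals, from GENCODE M21 transcript Gars-201, whose coding sequence has 729 codons and its next in-frame ATG at codon 47. A start at the first ATG adds a leader that sends the enzyme to mitochondria, and a start at a later ATG gives the cytosolic enzyme.
Gars-201: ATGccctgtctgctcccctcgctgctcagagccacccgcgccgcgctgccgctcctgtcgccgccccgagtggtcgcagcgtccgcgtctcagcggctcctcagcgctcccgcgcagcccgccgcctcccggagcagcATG
Kars uses splicing instead. In the transcripts below the capitals are the bases of the coding sequence that each transcript has for itself, 59 in Kars-201 (595 codons) and 146 in Kars-202 (624 codons), and the lower case is the start of the 1726 bases they share. The longer coding sequence is that of the mitochondrial form. Counts per gene do not separate these forms in either gene.
Kars-201: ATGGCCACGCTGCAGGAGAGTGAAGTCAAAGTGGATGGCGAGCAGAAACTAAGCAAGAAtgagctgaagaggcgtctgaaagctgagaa
Kars-202: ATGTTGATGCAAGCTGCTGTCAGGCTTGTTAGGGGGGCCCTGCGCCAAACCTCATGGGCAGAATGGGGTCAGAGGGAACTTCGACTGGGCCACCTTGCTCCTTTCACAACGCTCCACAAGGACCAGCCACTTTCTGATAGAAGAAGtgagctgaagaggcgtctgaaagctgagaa

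The 250 bases before the start of Gars and of Kars were then read from the RefSeq promoter table (GRCm38.p6), since these were the 2 members called higher in both pulldowns. Capitals mark a match to one of 2 motifs searched on both strands: TGATGNAA, the core of the amino acid response element, and CGCANGCGC, part of the site of the factor NRF1, a regulator of genes for mitochondria.
Gars, chr6:55037751-55038000, plus strand: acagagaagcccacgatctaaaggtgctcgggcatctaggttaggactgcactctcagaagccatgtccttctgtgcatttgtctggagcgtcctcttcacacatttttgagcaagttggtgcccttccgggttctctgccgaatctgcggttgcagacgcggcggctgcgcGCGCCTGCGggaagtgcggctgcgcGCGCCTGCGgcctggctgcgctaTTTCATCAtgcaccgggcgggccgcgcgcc
Kars, chr8:112011355-112011604, minus strand: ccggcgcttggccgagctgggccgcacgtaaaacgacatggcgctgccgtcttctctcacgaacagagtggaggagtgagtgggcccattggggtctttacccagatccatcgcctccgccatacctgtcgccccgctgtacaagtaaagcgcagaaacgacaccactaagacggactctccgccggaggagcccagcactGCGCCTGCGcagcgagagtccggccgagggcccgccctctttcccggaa
Gars held the response element on the opposite strand, starting 30 bases before the gene's start, and the NRF1 motif at 78 and 53 bases before it. Kars held the NRF1 motif at 49 bases before its start and no match to TGATGNAA in the window.

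Over windows from 250 bases before to 50 after the start, 26 of the 37 members matched an entry in that table. TGATGNAA was found in 3.97% of all 32851 promoters. Among the members it was found in 4 of 11 cytosolic promoters (Aars, Iars, Tars and Yars), in that of Gars, and in 0 of 14 mitochondrial promoters, which belong to 13 genes. CGCANGCGC was found in 6.31% of all promoters, in 3 of 11 cytosolic ones (Farsa, Farsb and Tars), in Gars and Kars, and in 4 of 14 mitochondrial ones (Iars2, Mars2, Vars2 and Wars2). The motifs do not overlap each other in the Gars window, and a match is only a string of letters. Nars, Hars and Mars were among the 11 members with no entry.

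Library depth and cell makeup were checked first. Total counts ran from 10149346 to 20521699 per library, and the 37 members took 0.121% to 0.172% of them in the inputs and 0.206% to 0.273% in the pulldowns. RNA of the mitochondrial ribosome was 23.2% to 40.7% of the counts in the inputs and 0.209% to 0.680% in the pulldowns, except 6.67% in TRAP_Chat replicate 1, so levels are given below as CPM, read counts over the library size after TMM scaling. All 6 motor neuron markers (Chat, Slc18a3, Slc5a7, Isl1, Mnx1 and Prph) rose in TRAP_Chat over its input, and their summed level was 1843 to 2992 CPM there against 293 to 317 in PreIP_Chat. In TRAP_Snap25 it was 231 to 476 CPM against 115 to 184 in PreIP_Snap25. Slc18a3 was the largest part of the sum in the Chat line, at a mean of 1374 CPM in TRAP_Chat and 184 in PreIP_Chat. In TRAP_Snap25 replicates 1, 2 and 3 Slc18a3 was at 74.2, 35.4 and 222 CPM, beside a mean of 50.7 in PreIP_Snap25. Slc18a3 thus differed between the inputs of the lines. In PreIP_Chat and PreIP_Snap25 the means were 60.7 and 59.7 CPM for Prph, 1.44 and 1.34 for Isl1, and 1.83 and 1.51 for Mnx1. They were 22.2 and 16.1 for Chat, and 33.7 and 29.6 for Slc5a7. The summed level of 5 general neuron markers was 7346 to 12130 CPM in TRAP_Chat and 6707 to 7556 in PreIP_Chat. In the Snap25 line it was 15690 to 17350 in TRAP_Snap25 and 9446 to 11170 in PreIP_Snap25. Most of this sum was Snap25 itself, with means of 8196 and 6300 CPM in the Chat line and 15690 and 9483 in the Snap25 line. Sequences of Chat and Snap25 also drive the tag, and whether the transgenes add to the reads of any marker was not tested. Of the 5 markers 4 had a positive and 1, Syt1, a negative log2 fold change in each line. The mean of Syt1 was 61.8 CPM in TRAP_Chat against 93.0 in its input, and 87.5 in TRAP_Snap25 against 92.5. None of these 5 passed the test in either pulldown. The markers of glia moved the other way: all 5 oligodendrocyte, 5 astrocyte and 4 microglia markers fell in both pulldowns. Oligodendrocyte markers still summed to 1781 to 5016 CPM in TRAP_Chat and 1386 to 4208 in TRAP_Snap25, against 14420 to 19850 over the inputs, and no marker of these lists was at 0 in a whole group. These values moved with every input-to-pulldown comparison below, and their part in it was not tested. In bulk samples such as these, fewer cells of a type and less RNA per cell cannot be told apart. Only the pulldown was selected for RNA on ribosomes. A difference from input can therefore come from the cell type or from the share of a message on ribosomes, which cannot be told apart either.

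The median level of the cytosolic synthetase genes stood well above that of the mitochondrial ones in every library, though single genes overlapped. To compare genes, CPM was divided by the length of each gene's principal transcript in kb. The median over the 19 cytosolic members was between 3.85 and 8.93 times the median over the 16 mitochondrial members in a single library, and between 5.26 and 9.09 times per kb of all annotated exons, a second length chosen after seeing the data. As group means of the library medians it was 14.9 ± 0.834 against 2.57 ± 0.510 CPM per kb in PreIP_Chat and 15.4 ± 4.25 against 2.39 ± 0.417 in TRAP_Chat (SD, n = 3). In the Snap25 line it was 16.9 ± 2.78 against 2.44 ± 0.183 in PreIP_Snap25 and 18.5 ± 2.41 against 2.89 ± 0.516 in TRAP_Snap25. The mitochondrial members together took 6.97% to 10.3% of the summed CPM of the family.

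**Figure D1:**
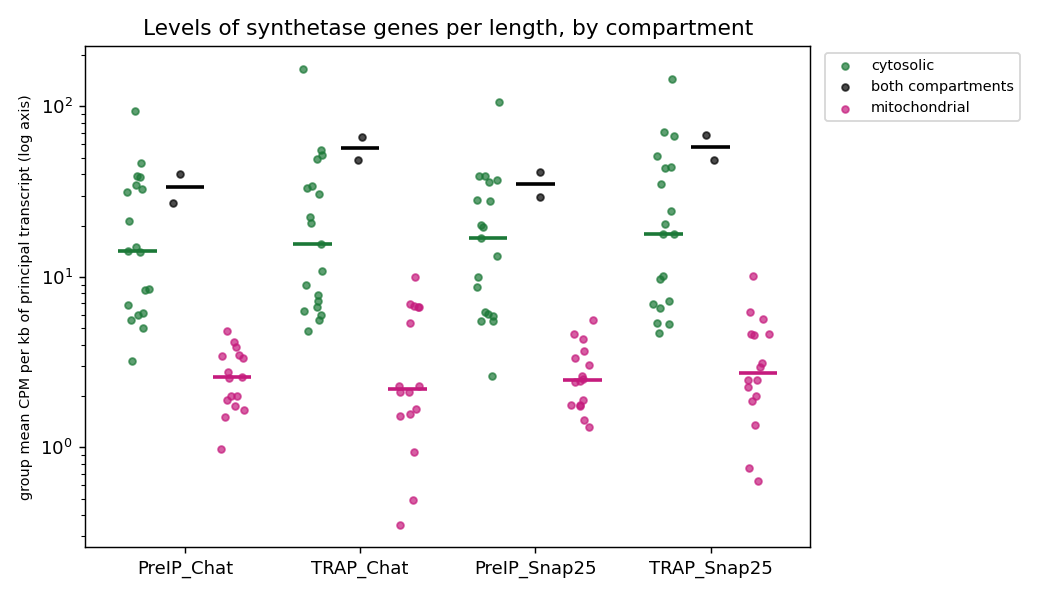
Group mean level (CPM per kb of principal transcript, log axis) of each synthetase gene in the 4 groups. Each point is a gene, coloured by compartment, and the line is the median of its class. The cytosolic points lie mostly above the mitochondrial ones in every group, with Nars on top, and the mitochondrial points reach lower in the pulldowns than in the inputs.

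Nars, the asparaginyl enzyme, had the highest level per length in every group. Its group means were 94.6 ± 10.4 CPM per kb in PreIP_Chat, 166 ± 16.7 in TRAP_Chat, 105 ± 4.74 in PreIP_Snap25 and 145 ± 7.76 in TRAP_Snap25 (SD, n = 3), and its libraries lay apart from those of the gene next in rank in each group. Gars was among the top 3 members in every group (rank 4 in TRAP_Snap25 per kb of all exons), at 40.0 ± 3.58, 65.7 ± 10.6, 41.0 ± 7.08 and 67.7 ± 8.56 CPM per kb in the same order. Below Nars the order was mostly not resolved: of 36 neighbouring pairs in the order of means, the libraries lay apart in 7 in PreIP_Chat, 2 in TRAP_Chat, 4 in PreIP_Snap25 and 2 in TRAP_Snap25. Mars2, the mitochondrial methionyl enzyme, was last in every group, at 0.980 ± 0.159 CPM per kb in PreIP_Chat and 0.351 ± 0.234 in TRAP_Chat, and at 1.31 ± 0.502 and 0.634 ± 0.155 in the Snap25 line. Its rank rests on the principal transcript, of 11294 bases: per kb of all exons Cars2 was last in both inputs and Ears2 in both pulldowns. Nars was first in every group by either length.

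The subunits of the phenylalanyl enzyme did not stand at like levels. Farsb was at 34.6 ± 0.449 CPM per kb in PreIP_Chat and 49.2 ± 8.30 in TRAP_Chat, and at 37.1 ± 4.87 in PreIP_Snap25 and 71.0 ± 10.7 in TRAP_Snap25 (SD, n = 3). Farsa, its partner, was at 6.81 ± 0.575, 6.63 ± 2.26, 5.52 ± 1.002 and 6.95 ± 4.19 CPM per kb in the same order. The lowest Farsb library was above the highest Farsa library in every group.

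The Chat line asked which synthetase messages the ribosomes of cholinergic neurons held more or less than whole cord. TRAP_Chat was higher than PreIP_Chat for 6 members and lower for 2, and 29 did not pass (edgeR's quasi-likelihood test, Benjamini-Hochberg adjusted p under 0.05 over all genes tested). Those that rose were the cytosolic Nars, the dual Gars and Kars, and the mitochondrial Iars2, Tars2 and Yars2. The mitochondrial Ears2 and Mars2 fell. Of all genes tested 26.9% passed in this comparison, 12.6% higher and 14.3% lower, so 8 of 37 is no larger a share than the background. The median log2 fold change was 0.11 over the 37 members and -0.06 over all genes tested, and 21 members had a positive and 16 a negative value.

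Nars was at 247, 240 and 292 CPM in the 3 PreIP_Chat libraries and at 459, 410 and 501 in TRAP_Chat. All 3 pulldowns lay above all 3 inputs, and its rise was 0.81 ± 0.20 on the log2 scale (SE, n = 3 per group, edgeR adjusted p = 0.00726). It was past the threshold in each of the 12 fits that left out a library. Kars, the lysyl enzyme, was at 51.4, 54.4 and 58.7 CPM in the inputs and at 110, 111 and 69.6 in the pulldowns. Replicate 3 of the pulldown was nearer to the inputs than the others, but the groups did not overlap, and the rise was 0.82 ± 0.22 (SE, edgeR adjusted p = 0.0117). Gars, the glycyl enzyme, was at 91.5, 89.1 and 105 CPM in the inputs and at 145, 185 and 139 in the pulldowns. The groups again lay apart, with a rise of 0.72 ± 0.22 (SE, edgeR adjusted p = 0.0221). Kars missed the threshold without PreIP_Chat replicate 1 or 2 (highest adjusted p = 0.0558), and Gars without either of these or TRAP_Chat replicate 2 (highest adjusted p = 0.0960).

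Among the mitochondrial members that rose, Tars2, the threonyl enzyme, was at 9.59, 6.42 and 8.15 CPM in PreIP_Chat and at 19.8, 20.2 and 10.1 in TRAP_Chat. The groups lay apart by a narrow margin, and the rise was 1.05 ± 0.34 (SE, edgeR adjusted p = 0.0310). Yars2, the tyrosyl enzyme, was at 9.34, 7.03 and 6.35 CPM in the inputs and at 12.3, 13.98 and 20.6 in the pulldowns. All pulldowns were above all inputs, with a rise of 1.05 ± 0.33 (SE, edgeR adjusted p = 0.0272). Iars2, the isoleucyl enzyme, was at 18.5, 18.4 and 20.5 CPM in the inputs and at 41.4, 34.3 and 33.8 in the pulldowns. Every pulldown was above every input, with a rise of 0.93 ± 0.31 (SE, edgeR adjusted p = 0.0369), but 22.9% of its exon bases overlap exons of Rab3gap2 on the opposite strand in GENCODE M21, and without a known strand setting the reads of the pair cannot be told apart. The call of Tars2 ended without any single PreIP_Chat library or TRAP_Chat replicate 1 or 2 (adjusted p up to 0.133), and that of Iars2 without any single PreIP_Chat library or TRAP_Chat replicate 1 or 3 (up to 0.114). Yars2 missed the threshold without PreIP_Chat replicate 2 or 3 or TRAP_Chat replicate 3 (up to 0.121).

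The members that fell were scarce in the pulldown. In PreIP_Chat, though, Mars2 was at a mean of 11.1 CPM, above Tars2 (8.05) and Yars2 (7.57), which rose. Ears2, the mitochondrial glutamyl enzyme, was at 7.08, 4.32 and 4.497 CPM in PreIP_Chat and at 0.371, 0.907 and 1.72 in TRAP_Chat, where it rested on 6, 12 and 33 reads. All pulldowns were below all inputs, and its fall was -2.39 ± 0.80 on the log2 scale (SE, edgeR adjusted p = 0.0368). In GENCODE M21, 1.73% of its exon bases overlap exons of Ubfd1 on the opposite strand, a gene with 45294 reads over all libraries. Mars2 was at 9.22, 11.2 and 12.8 CPM in the inputs and at 1.24, 4.16 and 6.51 in the pulldowns. The groups lay apart, though replicates 1 and 3 of the pulldown differed widely, and the change was -1.47 ± 0.48 (SE, edgeR adjusted p = 0.0301). Both calls ended without TRAP_Chat replicate 1 or 2 and without PreIP_Chat replicate 2 or 3, and that of Ears2 also without PreIP_Chat replicate 1 or PreIP_Snap25 replicate 1 (adjusted p up to 0.109 for Ears2 and 0.0916 for Mars2). Without TRAP_Chat replicate 1 the change of Mars2 was -1.05 and that of Ears2 -1.99, and without TRAP_Chat replicate 3 they were -2.05 and -3.06. Both genes were lowest in TRAP_Chat replicate 1, which also had the highest oligodendrocyte markers of the Chat pulldowns, at 5016 CPM. A link between these was not tested.

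**Figure D2:**
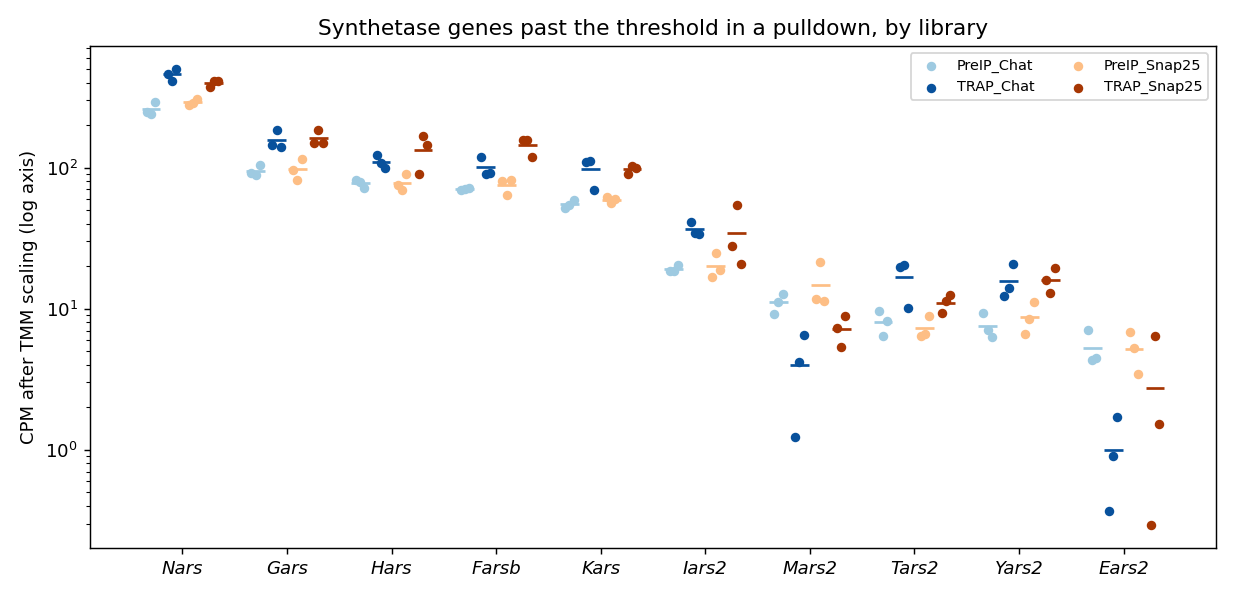
Level of the 10 synthetase genes past the threshold in at least 1 pulldown, in CPM after TMM scaling on a log axis. Each point is a library, 3 per group, and the line is the group mean. Nars, Gars and Kars lie higher in both pulldowns than in both inputs, while Mars2 lies lower in TRAP_Chat and Ears2 spreads widely in the pulldowns.

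Counting libraries in place of the test, 12 members had all TRAP_Chat libraries above all PreIP_Chat libraries and 4, with Ears2 and Mars2 among them, had all below, or 16 of 37, beside 47.9% of all genes tested whose groups did not overlap. The 12 were the 6 that passed and Cars, Farsb, Hars, Rars, Tars and Rars2. Among these, Farsb was at 69.6, 70.3 and 71.4 CPM in the inputs and at 120, 90.0 and 90.8 in the pulldowns, a difference of 0.51 ± 0.21 that missed the threshold (SE, edgeR adjusted p = 0.0884). Farsa was at 12.8, 11.2 and 13.2 CPM against 8.96, 16.8 and 10.6, with groups that overlapped (-0.04 ± 0.39, adjusted p = 0.950). Eprs, the fused glutamyl-prolyl enzyme and the largest of the complex, was at 67.8, 59.7 and 79.3 CPM against 51.7, 84.3 and 92.1, also overlapping (0.14 ± 0.34, adjusted p = 0.792).

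The Snap25 line put the same question to neurons in general. TRAP_Snap25 was higher than PreIP_Snap25 for 4 members (Farsb, Gars, Hars and Kars), lower for 0, and 33 did not pass (edgeR). Of all genes tested 22.4% passed, 9.69% higher and 12.7% lower, so 4 of 37 higher was close to the background share. At an unadjusted p under 0.05 there were 10 members higher and 2 lower, and in the Chat line 10 of 12 such members were higher. The share of all genes at this cut is not given here, so these counts have no background beside them. The median log2 fold change over the members was 0.32, beside 0.00 over all genes tested, with 29 positive and 8 negative values. The groups did not overlap for 13 members, 10 above and 3 below (Dars, Mars2 and Wars2), beside 38% of all genes tested.

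Farsb was at 80.7, 64.2 and 81.9 CPM in PreIP_Snap25 and at 158, 156 and 119 in TRAP_Snap25. The groups lay well apart, and the rise of 0.93 ± 0.22 (SE, n = 3 per group, edgeR adjusted p = 0.00613) was past the threshold in each of the 12 fits that left out a library. In GENCODE M21, 9.47% of its exon bases overlap exons of Sgpp2 on the opposite strand. Gars was at 95.6, 81.8 and 115 CPM in the inputs and at 149, 185 and 150 in the pulldowns, a rise of 0.72 ± 0.22 (SE, edgeR adjusted p = 0.0250). Kars was at 61.6, 55.8 and 59.8 CPM against 90.3, 103 and 99.1, a rise of 0.72 ± 0.22 (SE, edgeR adjusted p = 0.0272). For Gars and Kars every pulldown library was above every input library in both lines. Without PreIP_Snap25 replicate 1 or 2 or TRAP_Snap25 replicate 2 both missed the threshold, and Kars also without PreIP_Snap25 replicate 3 (adjusted p up to 0.116 for Gars and 0.0972 for Kars).

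Hars, the histidyl enzyme, was at 75.0, 69.1 and 89.7 CPM in PreIP_Snap25 and at 89.5, 167 and 144 in TRAP_Snap25. It passed the test (0.78 ± 0.24, SE, edgeR adjusted p = 0.0281) although replicate 1 of the pulldown was level with the highest input, and it missed the threshold without PreIP_Snap25 replicate 1 or 2 or TRAP_Snap25 replicate 2 (adjusted p up to 0.136). In GENCODE M21, 7.97% of the exon bases of Hars overlap exons of Hars2 on the opposite strand. Farsa was at 12.04, 8.42 and 9.78 CPM against 9.11, 7.48 and 21.5, where only replicate 3 of the pulldown stood out (0.32 ± 0.39, adjusted p = 0.596). Eprs was at 70.6, 81.2 and 97.7 CPM against 82.3, 140 and 41.3, so its pulldowns lay on both sides of the inputs (0.08 ± 0.34, adjusted p = 0.895). Nars was at 278, 287 and 304 CPM against 373, 407 and 412. Its groups lay apart, but the difference of 0.46 ± 0.20 missed the threshold (SE, edgeR adjusted p = 0.112).

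The mitochondrial members that fell in the Chat line were also lower on average here, without passing. Mars2 was at 11.8, 21.4 and 11.3 CPM in PreIP_Snap25 and at 7.27, 5.36 and 8.85 in TRAP_Snap25, with all pulldowns below all inputs (-1.05 ± 0.47, SE, edgeR adjusted p = 0.118). Ears2 was at 6.82, 5.24 and 3.45 CPM against 0.294, 6.42 and 1.53, where replicate 2 of the pulldown stood within the inputs and the others below them (-0.89 ± 0.76, SE, edgeR adjusted p = 0.432). Without that library the change was -2.55 with an adjusted p of 0.0360. Mars2 passed in 1 of the 12 such fits, without TRAP_Chat replicate 1, with an adjusted p of 0.0425.

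**Figure D3:**
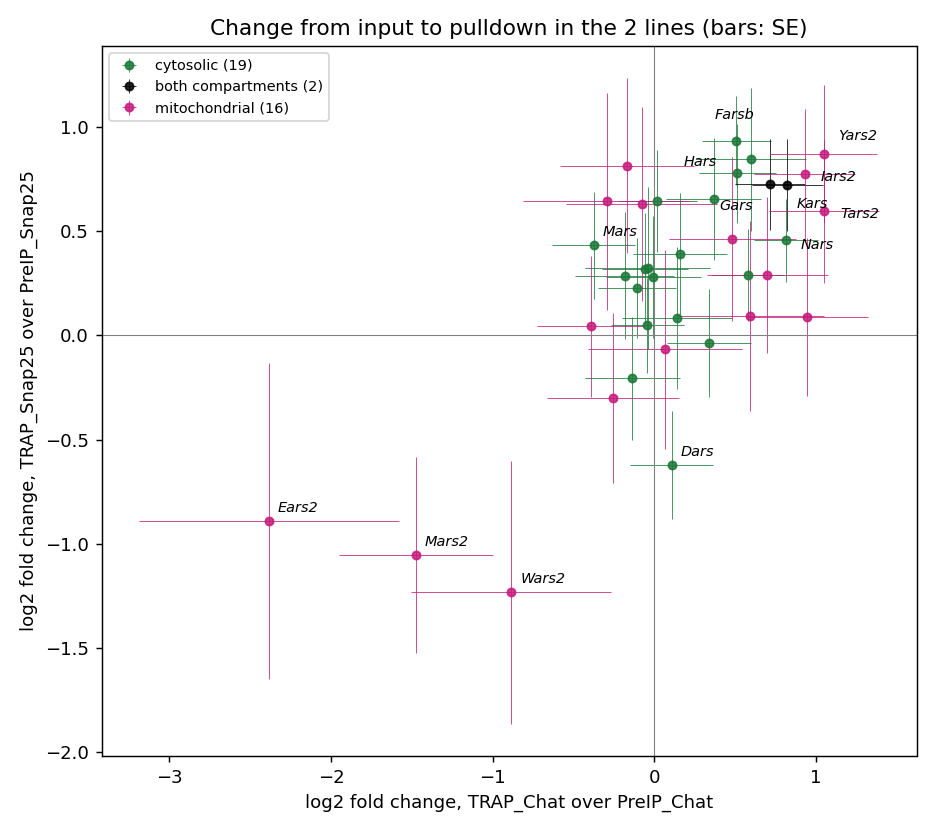
Log2 fold change from input to pulldown of the 37 synthetase genes, in the Chat line (x axis) and the Snap25 line (y axis), with bars for the standard error and colours for the compartment. Gars and Kars lie together near 0.7 to 0.8 on both axes, and Ears2, Mars2 and Wars2 lie apart at the lower left with wide bars.

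By compartment, the counts are to be read against the shares of all genes given above, 12.6% higher and 14.3% lower in the Chat line and 9.69% and 12.7% in the Snap25 line. Of 19 cytosolic members 1 rose and 0 fell in the Chat line (Nars) and 2 rose and 0 fell in the Snap25 line (Farsb and Hars). Of 16 mitochondrial members 3 rose and 2 fell in the Chat line, near those shares, and 0 passed in the Snap25 line. There 2 higher and 1 lower had an unadjusted p under 0.05, a cut for which no share of all genes is given. Both dual members rose in both lines. The median log2 fold change of the cytosolic members was 0.11 in the Chat line and 0.32 in the Snap25 line, and that of the mitochondrial members was -0.01 and 0.19. The spread of these changes was wider for the mitochondrial members, from -2.39 to 1.05 in the Chat line against -0.38 to 0.81 for the cytosolic ones. The precision differed too: the median standard error was 0.41 for the mitochondrial and 0.26 for the cytosolic members, and single libraries held 4 to 968 reads of a mitochondrial member and 116 to 9628 of a cytosolic one.

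Replicates of the Chat pulldown varied more than those of its input, and in the Snap25 line this held for the cytosolic members. The median coefficient of variation of CPM over 3 libraries was 8.84% for cytosolic and 17.9% for mitochondrial members in PreIP_Chat, and 16.4% and 38.0% in TRAP_Chat. In the Snap25 line it was 15.5% and 24.2% in the inputs and 29.5% and 25.3% in the pulldowns, and for Gars and Kars it was 11.2% in the inputs and 9.62% in the pulldowns. TRAP_Snap25 replicate 3 held the highest value for 18 of the 37 members, replicate 2 for 14 and replicate 1 for 5. Replicate 3 stood apart for some cytosolic members: Aars, the alanyl enzyme, was at 151, 170 and 283 CPM in the TRAP_Snap25 libraries, Sars, the seryl enzyme, at 99.8, 111 and 262, and Mars, the methionyl enzyme, at 43.3, 40.7 and 74.2 (chosen after their values were seen). The same library had the highest summed markers of glia, with 1753, 1386 and 4208 CPM for oligodendrocytes and 141, 77.2 and 205 for astrocytes in replicates 1, 2 and 3, and of motor neurons, with 242, 231 and 476. In TRAP_Chat it was replicate 1 that had the highest sums for oligodendrocytes (5016, 1781 and 2536 CPM) and astrocytes (240, 129 and 133). Its motor neuron sum was the lowest (1843, 2992 and 2689), while microglia markers were highest in replicate 3 (6.43, 6.20 and 9.94). The part of these in the results of either line was not tested. Leaving out TRAP_Snap25 replicate 3 gave 5 members higher in TRAP_Snap25 than in its input, leaving out replicate 1 gave 6, and leaving out replicate 2 gave 1, which was Farsb. The shares of all genes in these fits are not given here, so the counts cannot be read as a trait of the family.

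For 13 amino acids a single cytosolic member was set against a single mitochondrial one, and the level of one over the other was taken within each library, per kb of principal transcript. The ratio was above 1 in all libraries for every pair but threonine, and for threonine too per kb of all exons. Nars stood highest over its partner, at a median of 47.3 times Nars2 in PreIP_Chat, 88.9 in TRAP_Chat, 42.8 in PreIP_Snap25 and 82.3 in TRAP_Snap25. The input and pulldown libraries lay apart in the Chat line (39.0 to 64.0 against 83.9 to 142) and overlapped in the Snap25 line (32.8 to 63.9 against 54.6 to 94.4). Tars stood at a median of 1.54 times Tars2 in PreIP_Chat and 0.734 in TRAP_Chat (range 0.713 to 1.65). Which of the pair is higher there depends on the length used, since per kb of all exons the ratio was 1.40 to 3.24 in TRAP_Chat and 2.56 to 3.36 in PreIP_Chat. A second cytosolic threonyl gene, Tarsl2, was at 8.48 ± 0.147 CPM per kb in PreIP_Chat and 7.87 ± 1.36 in TRAP_Chat (SD, n = 3), beside 3.36 ± 0.660 and 6.96 ± 2.39 for Tars2. From input to pulldown, the cytosolic change was the more positive of the pair in 8 of 13 pairs in the Chat line and in 7 of 13 in the Snap25 line, with a median difference of 0.02 and 0.01 on the log2 scale.

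The pairs did not move alike. In both lines the cytosolic over mitochondrial ratio of methionine was higher in the pulldowns than in the inputs, at 18.3 to 95.3 against 11.7 to 17.8 in the Chat line and 22.9 to 32.2 against 5.58 to 15.4 in the Snap25 line. For isoleucine the ratio was lower in the Chat pulldowns, at 2.20 to 4.33 against 5.70 to 6.48, and the ranges overlapped in the Snap25 line (2.16 to 4.65 against 3.95 to 6.36). For tyrosine it was 2.37 to 4.32 in TRAP_Chat and 6.33 to 7.60 in PreIP_Chat, and the ranges overlapped in the Snap25 line (2.94 to 5.30 against 4.10 to 7.11). These ratios were not tested, and they restate the levels given above.

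**Figure D4:**
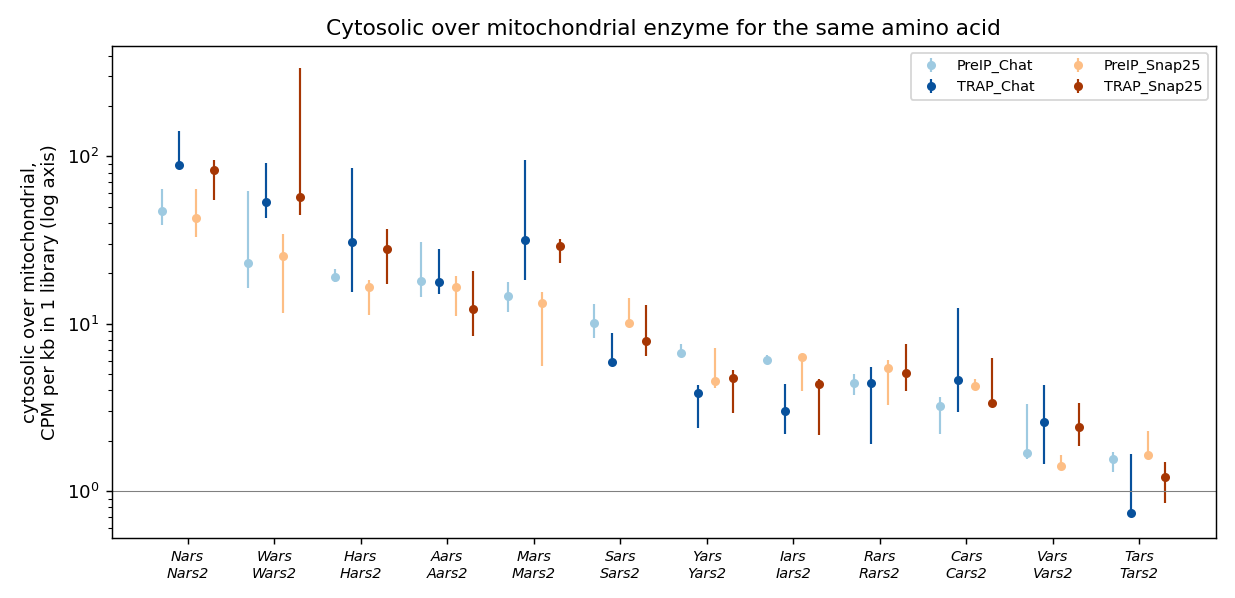
For 12 of the 13 amino acids, level of the cytosolic over the mitochondrial enzyme for the same amino acid, in CPM per kb of principal transcript within a library, on a log axis. Points are the median of 3 libraries and bars their range, coloured by group, with a line at a ratio of 1. Nars over Nars2 stands highest at a median of 47.3 in PreIP_Chat and 88.9 in TRAP_Chat, and Tars over Tars2 lowest, at 0.734 in TRAP_Chat by this length and 1.44 per kb of all exons. The bar up to 336 for Wars over Wars2 rests on a single TRAP_Snap25 library in which Wars2 was at 0.558 CPM.

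The pulldowns of both lines were set against each other to ask whether motor neurons differ from neurons in general. Of the 37 members 0 passed in TRAP_Chat against TRAP_Snap25 (edgeR, and 0 by DESeq2 and limma voom), where 6.75% of all genes tested did, and 2 had an unadjusted p under 0.05. These were Mars, at 30.6, 34.4 and 31.0 CPM in TRAP_Chat against 43.3, 40.7 and 74.2 in TRAP_Snap25 (-0.72 ± 0.26, SE, edgeR adjusted p = 0.110), and Farsb, at 120, 90.0 and 90.8 against 158, 156 and 119 (-0.53 ± 0.21, adjusted p = 0.154). Mars was the one member with all TRAP_Chat libraries below all TRAP_Snap25 libraries, and Dars, the aspartyl enzyme, the one with all above, beside 19.8% of all genes tested. Gars differed by -0.04 ± 0.22 and Kars by -0.01 ± 0.22 between the pulldowns (SE, edgeR adjusted p = 0.942 and 0.992).

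The test of the line difference, that is of the change from input to pulldown in the Chat line against that in the Snap25 line, gave 0 of 37 members (edgeR, DESeq2 and limma voom), where 1.04% of all genes tested passed. At an unadjusted p under 0.05 there was 1, Mars (-0.81 ± 0.36, SE, edgeR adjusted p = 0.401). So the calls made in 1 line only, such as Nars in the Chat line and Farsb in the Snap25 line, are not shown to differ between the lines: the difference was 0.36 ± 0.28 for Nars (edgeR adjusted p = 0.713) and -0.43 ± 0.30 for Farsb (edgeR adjusted p = 0.671). The precision is low, with a median standard error of 0.44 over the members. The inputs of the lines gave 0 members at an adjusted and 0 at an unadjusted p under 0.05 (edgeR), as 0% of all genes tested passed, and the changes ran from -0.42 to 0.53.

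Counts by known role stand beside 12.6% of all genes higher and 14.3% lower in the Chat line, and 9.69% and 12.7% in the Snap25 line. The members of the multisynthetase complex (Dars, Eprs, Iars, Kars, Lars, Mars, Qars and Rars) gave 1 of 8 higher in each line, which was Kars, and 0 lower. Their median log2 fold change was 0.05 in the Chat line and 0.18 in the Snap25 line. Of the 7 genes linked to axonal neuropathy (Aars, Gars, Hars, Kars, Mars, Wars and Yars), 2 rose in TRAP_Chat (Gars and Kars) and 3 in TRAP_Snap25 (Gars, Hars and Kars), and 0 fell in either. All 7 had a positive value in the Snap25 line, with a median of 0.65, and 5 of 7 in the Chat line, with a median of 0.16. Over all 37 members 29 values were positive in the Snap25 line (median 0.32) and 21 in the Chat line (median 0.11). Gars, Hars and Kars were highest in TRAP_Snap25 replicate 2, and Aars, Mars, Wars and Yars in replicate 3. By replicate Aars was at 151, 170 and 283 CPM (input mean 161) and Mars at 43.3, 40.7 and 74.2 (39.1). Wars was at 71.85, 77.5 and 132 (71.45) and Yars at 86.25, 126 and 168 (81.1). Of 6 genes linked to disease of the white matter, such as Ears2, Eprs and Rars, 0 rose and 1 fell in TRAP_Chat, which was Ears2, and 0 passed in TRAP_Snap25.

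Proteins that work beside the synthetases were measured through 24 tested genes of a list of 25. In TRAP_Chat 3 rose and 1 fell, with a median of 0.16, where 12.6% of all genes were higher and 14.3% lower. In TRAP_Snap25 2 rose and 0 fell, with a median of 0.41, where 9.69% were higher and 12.7% lower, so the rises are near the background. Gatc, a subunit of the amidase that turns glutamyl into glutaminyl transfer RNA in mitochondria, rose in both lines: it was at 52.6, 44.1 and 53.0 CPM in PreIP_Chat and at 106, 78.7 and 96.7 in TRAP_Chat (0.91 ± 0.24, SE, edgeR adjusted p = 0.0102), and rose by 0.77 ± 0.24 in the Snap25 line (adjusted p = 0.0287). The amidase acts on the product of Ears2, which fell in the Chat line, but a link between the changes of Gatc and Ears2 was not tested. Eef1e1, a scaffold of the multisynthetase complex, rose by 0.91 ± 0.32 in TRAP_Chat (edgeR adjusted p = 0.0437). Aimp1 and Aimp2, its other scaffolds in the list, did not pass there (-0.24 ± 0.31 and -0.11 ± 0.32, edgeR adjusted p = 0.590 and 0.827). Pstk, a kinase in the making of selenocysteinyl transfer RNA, rose by 1.49 ± 0.37 in TRAP_Snap25 (edgeR adjusted p = 0.00976). Prorsd1, which resembles the editing domain of a prolyl enzyme, had the value -2.58 ± 0.78 in TRAP_Chat (edgeR adjusted p = 0.0220), at 0.0756 to 0.625 CPM in the pulldown libraries.

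Genes of the amino acid response moved in both directions. Matches to the response element were not counted in the promoters of this list. Of 21 tested, 3 rose and 8 fell in TRAP_Chat (median -0.60) and 3 rose and 6 fell in TRAP_Snap25 (median -0.32), beside 12.6% of all genes higher and 14.3% lower in the Chat line and 9.69% and 12.7% in the Snap25 line. Asns, which makes asparagine, rose in both: it was at 67.6, 70.0 and 65.9 CPM in PreIP_Chat against 121, 107 and 113 in TRAP_Chat, and at 64.4, 51.9 and 72.9 against 108, 118 and 162 in the Snap25 line (log2 0.74 ± 0.22 and 1.03 ± 0.22, SE, edgeR adjusted p = 0.0191 and 0.00398). Atf4 itself was higher in TRAP_Snap25 (0.82 ± 0.25, edgeR adjusted p = 0.0282) and missed the threshold in TRAP_Chat (0.67 ± 0.25, edgeR adjusted p = 0.0563). Phgdh, the first enzyme of serine synthesis, fell in both lines, to 0.680 to 2.90 CPM in TRAP_Chat from 10.3 to 12.5 in PreIP_Chat. Slc7a11, a cystine transporter, also fell in both, with a log2 fold change of -2.98 in the Chat line and -2.52 in the Snap25 line. Of the 5 members whose promoter window held TGATGNAA (Aars, Iars, Tars, Yars and Gars), Gars alone passed in a pulldown, and the values of the other 4 ran from -0.06 to 0.34 in the Chat line and from -0.04 to 0.65 in the Snap25 line.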

How the data were processed

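The authors deposited raw read counts per Ensembl gene, with STAR and HTSeq named in the submitters' processing notes. For the build, annotation release, tool versions and strandedness the sources used here give nothing, so reads of genes that overlap cannot be told apart. Per the labels' protocols, immunopurification took 4 h and libraries went through Nugen Ovation amplification, so counts are not independent molecules. The table has 41736 lines, of which 824 repeat another and were dropped. Groups come from the sample titles. Whether replicates are separate animals is not in the labels, and the p-values cover the spread among these libraries, which may be technical.

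Counts were fitted with edgeR 4.0.16 in R 4.3.3 (filterByExpr by group, TMM, glmQLFit and glmQLFTest on all 12 libraries, 1 mean per group). The p-values were adjusted by Benjamini-Hochberg over 15905 genes, with a threshold of 0.05, in 5 comparisons. The standard error is the log2 fold change over the root of F. CPM are after TMM scaling. Lengths and exon overlaps are from GENCODE M21, matched by Ensembl gene ID, which gave a length for all 37 members. Coding starts are from GENCODE M21, matched by symbol. The pipeline was tested on simulated data. Tried besides were DESeq2 1.42.0, limma voom (limma 3.58.1), RLE scaling, 2 other filters, a fit of only the groups compared, a scale without the mitochondrial genome and Lars2, a replicate block, and leaving out each library.

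The members and lists were chosen with earlier results of these data known. Named are all members past the threshold, with values by library for up to 4 rises and 4 falls per comparison and for Gars, Kars, Eprs, Farsa and Farsb, and up to 3 genes per direction of the other lists. The values of 1 member are not reported here. Values by library of further members were chosen after they were seen.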

Additional observations from a re-analysis of the deposited data

How the results depend on the processing

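In the Chat line, members higher in the pulldown numbered 6, and 3 with no filter on low counts, where Iars2, Kars and Nars passed. Leaving out 1 library gave 1 to 7 members higher (1 without PreIP_Chat replicate 2, which was Nars) and 0 to 2 lower. In the Snap25 line the 4 members higher became 2 with no filter (Farsb and Hars) and 1 in a fit of only the groups compared (Farsb), and leaving out 1 library gave 1 to 6 higher and 0 to 1 lower. With limma voom 1 member was lower there, Wars2. A fit of only the groups compared gave 8 members higher in the Chat line, adding Hars and Rars. DESeq2 added Rars and Rars2 in the Chat line and Yars2 in the Snap25 line to the members higher. In the inputs the median log2 fold change of the cytosolic members ran from -0.054 to 0.174 over the fits that left out a library. The comparison of the pulldowns, the line difference and the inputs gave 0 members under each of these alternatives, and no called value reversed its direction under any of them. Per kb of all exons, a length chosen after seeing the data, the cytosolic over mitochondrial median in TRAP_Snap25 was 7.59 in place of 6.48. The shares of all genes under these alternatives are not given here, so shifts in the number of members cannot be set against a background. The cause of these shifts was not tested.

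Inputs and pulldowns of the same replicate number also share a suffix in their descriptions, whose meaning is not stated, and neither was shown to pair them: over all genes tested, same-numbered deviations correlated at 0.0601, 0.102 and 0.127 in the Chat line and -0.0365, 0.167 and 0.147 in the Snap25 line. With the replicate block 6 members were higher and 2 lower in the Chat line and 4 and 0 in the Snap25 line, as without it. Each Chat input correlated best with the pulldown of its own number, and Snap25 input 1 did not. Mitochondrial members rest on as few as 4 reads in a library, which limits what can be called among them.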
